A study of Mus musculus with 8 samples.

Results

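The proteasome genes of mouse classical monocytes were taken as every gene symbol that begins Psma, Psmb, Psmc, Psmd, Psme, Psmf or Psmg followed by a number, without the copies marked -ps, and with a mean over the libraries of at least 0 log2 CPM (the log2 of reads scaled to a common library total, so at least 1 CPM). The rule found 49 genes of the 12752 that passed the same level filter, and none of the 49 symbols was lost to the filter. The 5 genes Psmb8, Psmb9, Psmb10, Psme1 and Psme2 encode the immunoproteasome catalytic subunits and the PA28 activator, and the other 44 were set against them. RNA was measured in Ly6C+ monocytes from bone marrow in 8 libraries, 2 for each of wild type, Bcl6 cKO (a conditional knockout), Irf2 KO and Nr4a1 KO mice. The series concerned transcription factors that act in the development of nonclassical monocytes. No treatment was named, and age, sex, the Cre driver of the Bcl6 deletion and the deleted exons were not given in the sources used here. Nor was it given whether 2 libraries of a genotype came from separate mice. The p-values therefore reflect only how these libraries scatter, and that scatter may be technical.

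The proteasome is the protease that degrades ubiquitin-tagged proteins. Its 20S core is a stack of outer alpha rings and inner beta rings, and the beta rings carry the catalytic sites. The 19S cap, built of ATPase and non-ATPase subunits, recognises, unfolds and feeds in tagged proteins, and dedicated chaperones assemble core and cap. In immune cells, and elsewhere under interferon-gamma, Psmb9, Psmb10 and Psmb8 take the places of Psmb6, Psmb7 and Psmb5, and PA28, made of the Psme1 and Psme2 products, can bind the core in place of the 19S cap. These exchanges favour peptides that suit presentation on MHC class I molecules. Amounts of the standard subunits are raised together by the factor encoded by Nfe2l1 when proteasome activity falls.

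Summed reads ran from 46617756 to 62633123 per library, and 1 CPM stood for 47.9 to 61.8 reads. The targeted genes checked the labels in part. Nr4a1 stood at 2.32 and 2.98 log2 CPM in Nr4a1 KO against 4.64 and 5.29 in wild type, but it was as low in Irf2 KO, at 2.59 and 2.52. Irf2 stood at 6.50 and 6.69 in Irf2 KO against 7.18 and 7.14 in wild type. Bcl6 stood at 6.53 and 6.40 in the libraries labelled Bcl6 cKO against 4.66 and 4.64 in wild type, higher rather than lower, so Bcl6 RNA does not show the deletion in those libraries and every direction given for them rests on the label. The classical monocyte genes Ly6c2 (11.49 to 12.61) and Ccr2 (9.83 to 10.75) were abundant in all 8 libraries. Since these are bulk samples, fewer cells of a type and less RNA per cell cannot be told apart.

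A gene is said to have risen or fallen where limma, fitted over all 12752 genes and all 8 libraries, gave a Benjamini-Hochberg adjusted p under 0.05. Errors of log2 differences are standard errors (SE) of that fit, with 2 libraries a genotype. The 3 knockouts were compared with the same 2 wild type libraries, so those 3 comparisons are not independent.

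Most proteasome genes were higher in Irf2 KO than in wild type. In Irf2 KO against wild type 16 of the 49 rose (32.7%), where 9.26% of all genes tested rose, and no member fell, where 12.3% of all genes did (21.6% were called in either direction). Only Psmd5 was lower at an unadjusted p under 0.05, and no member fell under limma voom either. The median log2 difference of the 49 was 0.35, against -0.043 over all genes tested. Both Irf2 KO libraries lay above both wild type libraries for 36 members (73.5%, against 30.1% of all genes) and below them for 3 (6.12%, against 35.8%). The count of rises depended on single libraries. It was 7 without wild type replicate 1 (4.81% of all genes rose in that fit), 3 rises and 1 fall without wild type replicate 2 (3.06% rose and 5.38% fell), and 7 without Irf2 KO replicate 1 (3.68%). It was 2 without Irf2 KO replicate 2 (2.79%), and 9 without either Bcl6 cKO library (6.79% without replicate 1 and 6.87% without replicate 2). The share of all genes that rose was thus lower in each of these fits as well.

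In Nr4a1 KO against wild type 1 member rose, where 3.94% of all genes did, and 5 fell (10.2%, against 11.2% of all genes). These shares are no larger than the background (15.1% of all genes were called in either direction), but some of the falls were large. Both Nr4a1 KO libraries lay above both wild type libraries for 22 members (44.9%, against 27.9% of all genes) and below them for 10 (20.4%, against 28.9%). The median of the 49 was 0.15, against 0.009 over all genes. The split of calls moved with the scaling. It was 4 higher and 5 lower with quantile normalization, and 8 higher and 5 lower with median centring. The share of all genes called higher moved too, from 3.94% to 8.4% and 9.22%. Centring shifts every gene's difference up by 0.13 in this comparison and by 0.1 in Irf2 KO. Without Nr4a1 KO replicate 1 the split was also 8 higher and 5 lower, where 3.65% and 10.3% of all genes were called.

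In the libraries labelled Bcl6 cKO 0 of the 49 were called by limma against wild type, where 5.01% of all genes tested were called (1.36% higher and 3.65% lower). At an unadjusted p under 0.05 there were 3 higher and 4 lower members, and limma voom and the authors' deposited table also called 0. A single member passed in some alternatives. Psmd8 was lower by 0.43 (log2 difference -0.43) in a fit of these groups alone and without either Nr4a1 KO library, and Psmd5 was called lower without wild type replicate 2 (-2.42). The median of the 49 was 0.08, against -0.005 over all genes. Both Bcl6 cKO libraries lay above both wild type libraries for 21 members (42.9%, against 26.8% of all genes) and below them for 11 (22.4%, against 28.4%). The 8 alpha ring genes were all among the 21.

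**Figure D1:**
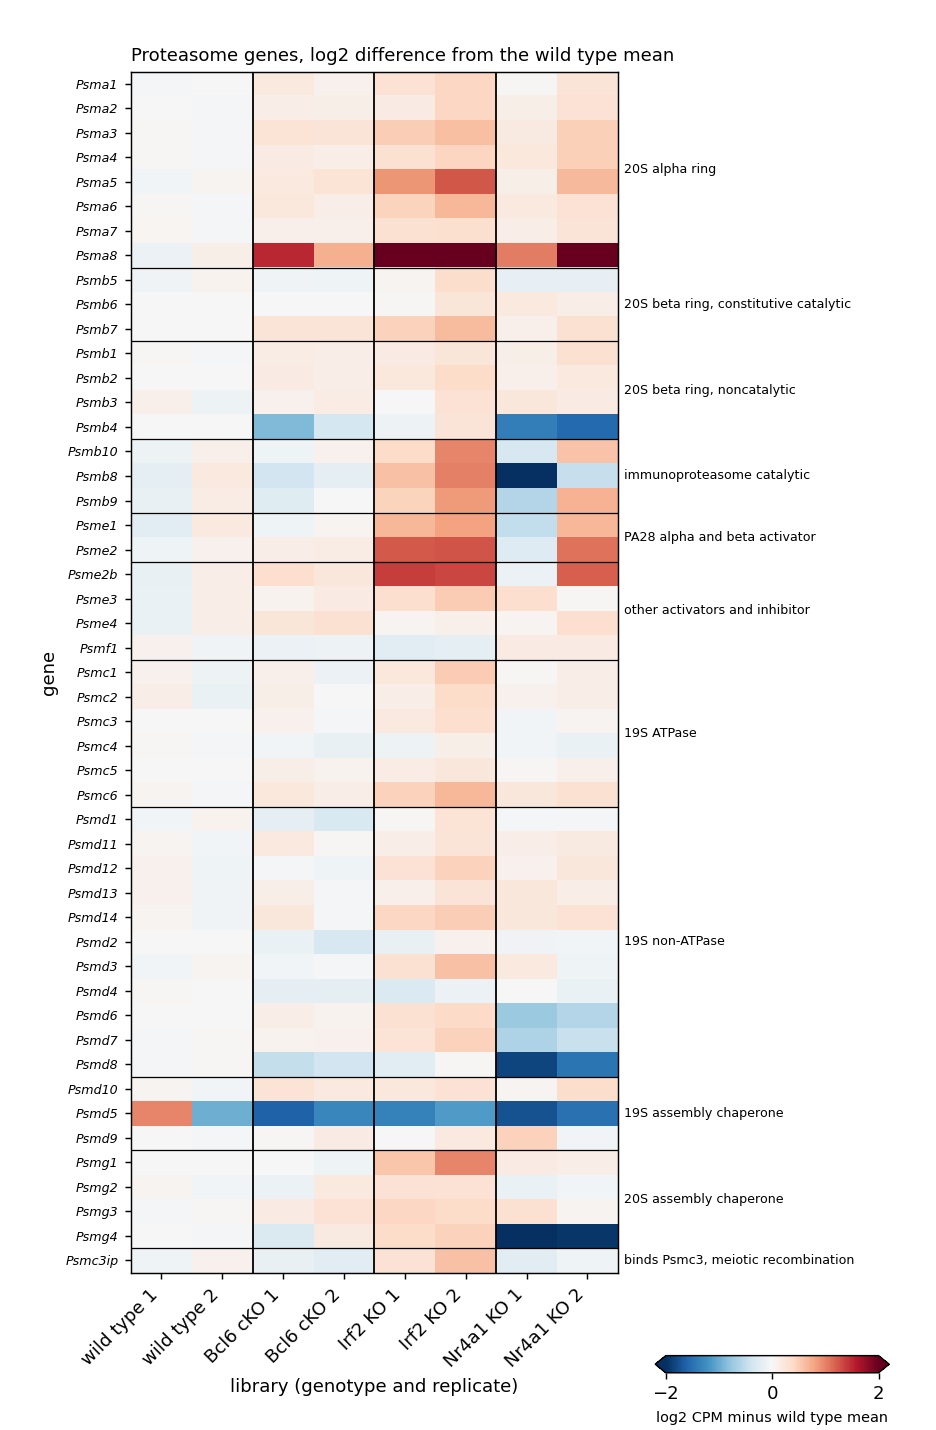
Each row is 1 of the 49 proteasome genes, ordered by role, and each column 1 of the 8 libraries. Colour gives the log2 CPM value minus the mean of the wild type libraries, held at 2 in either direction. The Irf2 KO columns are red across most rows, the Nr4a1 KO columns are blue for Psmb4, Psmd6, Psmd7, Psmd8 and Psmg4, and Psmd5 is blue in every knockout library and red in wild type replicate 1.

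**Figure D2:**
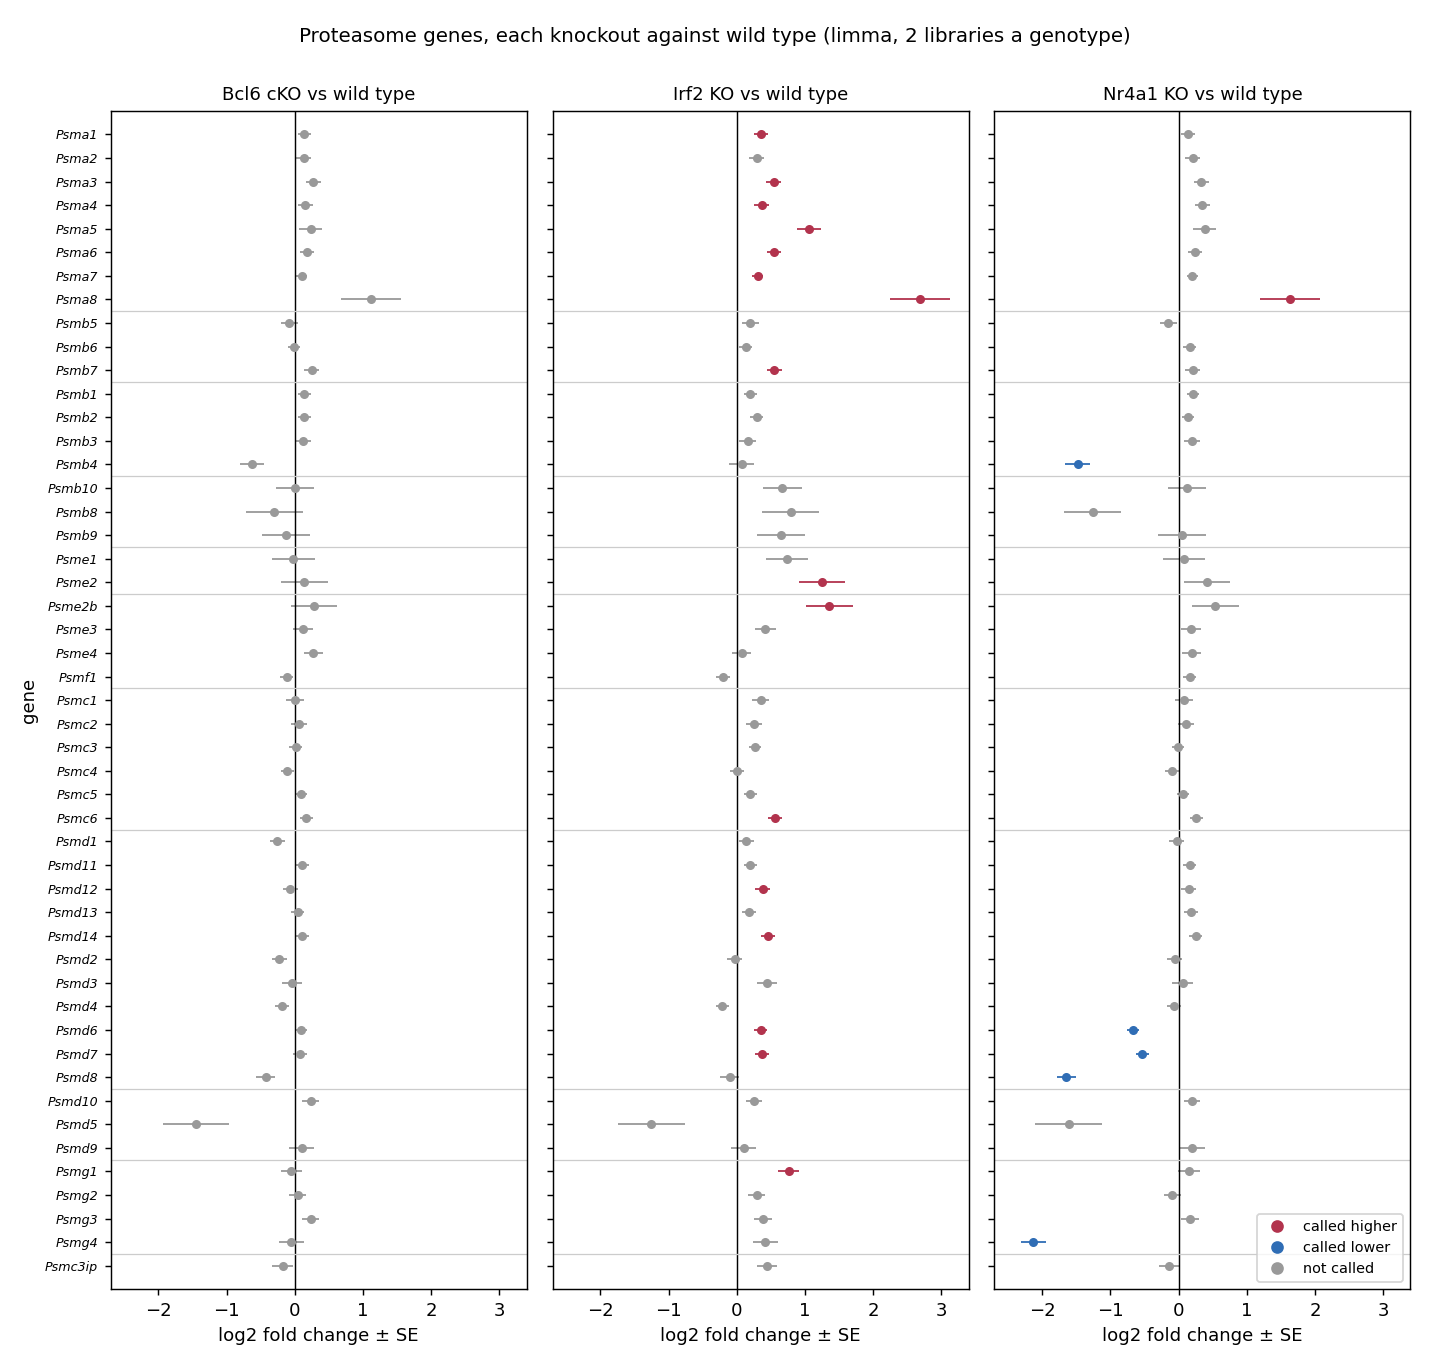
Points are log2 fold changes of the 49 genes against wild type, 1 panel a knockout, with bars of 1 SE from limma and lines between roles. Red and blue points passed the adjusted threshold (16 rises in Irf2 KO, 1 rise and 5 falls in Nr4a1 KO), and grey points did not.

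Immunoproteasome and PA28 genes were examined first. All 5 were higher in both Irf2 KO libraries than in either wild type library, by log2 differences of 0.65 to 1.25, but Psme2 was the one that passed the test. Psmb8, Psmb9, Psmb10 and Psme1 passed when either Nr4a1 KO library was left out of the fit, with adjusted p from 0.0061 for Psme1 to 0.0278 for Psmb10. In a fit of Irf2 KO and wild type alone Psmb8 (adjusted p = 0.0255), Psmb9 (0.0383) and Psme1 (0.0187) passed and Psmb10 did not. Psme2, the beta subunit of PA28 (chr14:55587441-55591113, minus strand, GRCm38), stood at 8.65 and 8.82 log2 CPM in wild type, 8.87 and 8.89 in Bcl6 cKO, 9.97 and 10.00 in Irf2 KO, and 8.48 and 9.83 in Nr4a1 KO. Its Irf2 KO libraries nearly coincided and cleared every other library, while its Nr4a1 KO libraries fell on either side of wild type. It rose by 1.25 ± 0.34 in Irf2 KO (2.38-fold, adjusted p = 0.0315), a call that was kept in 2 of the 8 fits that left out 1 library, those without an Nr4a1 KO library. Psme2b, a further copy of the Psme2 gene, rose too (1.36 ± 0.34, adjusted p = 0.0235). The sources used here do not say how reads were divided between the copies, so both values are uncertain. Its call was lost without either wild type or either Irf2 KO library.

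The bases before the Psme2 start are printed because its rise in Irf2 KO was the one call against wild type among these 5 genes. They are the RefSeq window (GRCm38.p6) up to 250 bases before the start, without bases in annotated exons, 5′ to 3′, and they hold none of the 3 motifs searched below, so nothing is in capitals.
Psme2, chr14:55591114-55591351, minus strand: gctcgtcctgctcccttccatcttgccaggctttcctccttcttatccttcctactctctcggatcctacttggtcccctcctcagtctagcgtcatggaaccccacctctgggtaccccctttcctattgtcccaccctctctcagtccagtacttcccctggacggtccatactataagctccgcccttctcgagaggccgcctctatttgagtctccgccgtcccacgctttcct

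Psme1, the alpha subunit of PA28, lies beside Psme2 (chr14:55578123-55581529, plus strand). It stood at 8.28 and 8.69 log2 CPM in wild type, 8.40 and 8.54 in Bcl6 cKO, 9.16 and 9.29 in Irf2 KO, and 7.99 and 9.15 in Nr4a1 KO. The Irf2 KO libraries lay above the other 6, but the difference from wild type did not pass (0.74 ± 0.31, adjusted p = 0.122). Its exons share 14 bases with Emc9 on the other strand.

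Psmb8, which replaces Psmb5 and is also called LMP7 (chr17:34197721-34201454, plus strand), stood at 8.41 and 8.78 log2 CPM in wild type and 8.20 and 8.39 in Bcl6 cKO. It stood at 9.18 and 9.60 in Irf2 KO and at 6.53 and 8.13 in Nr4a1 KO. Irf2 KO was highest and Nr4a1 KO lowest, with no overlap between these groups and wild type, yet neither difference from wild type passed (0.79 ± 0.42, adjusted p = 0.204, and -1.26 ± 0.42, adjusted p = 0.0774). The direct comparison of Irf2 KO with Nr4a1 KO did pass, at 2.06 ± 0.42 (4.16-fold, adjusted p = 0.00934), and was lost without Irf2 KO replicate 2 (adjusted p = 0.0635). Without Nr4a1 KO replicate 2, Psmb8 was called lower in Nr4a1 KO than in wild type (-2.06, adjusted p = 0.000224). Psmb8 shares 498 exon bases with Gm20496 on the other strand.

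Psmb9, which replaces Psmb6 and is also called LMP2, lies near Psmb8 in the MHC region (chr17:34181987-34187764, minus strand). It stood at 7.38 and 7.68 log2 CPM in wild type, 7.28 and 7.52 in Bcl6 cKO, 7.97 and 8.38 in Irf2 KO, and 6.94 and 8.22 in Nr4a1 KO. Psmb10, which replaces Psmb7 (chr8:105935735-105938444, minus strand), stood at 8.35 and 8.55 in wild type, 8.36 and 8.53 in Bcl6 cKO, 8.81 and 9.43 in Irf2 KO, and 8.13 and 9.02 in Nr4a1 KO. Both showed the same order, with Irf2 KO above wild type in every library and the Nr4a1 KO libraries on either side of it. The differences of Irf2 KO from wild type did not pass (0.65 ± 0.35, adjusted p = 0.214 for Psmb9, and 0.67 ± 0.28, adjusted p = 0.121 for Psmb10). Psmb9 overlaps Tap1 on the other strand by 212 exon bases, and the library kit does not mark strand.

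The 2 Nr4a1 KO libraries differed from each other in all 5 of these genes, by 0.89 for Psmb10 and by 1.60 for Psmb8. The median difference of the 5 from the wild type mean was -0.50 in Nr4a1 KO replicate 1 and 0.66 in replicate 2. For the other 44 genes the same medians were 0.09 and 0.14. Without Nr4a1 KO replicate 1, Psmb9 (0.69, adjusted p = 0.0474), Psme1 (0.66, adjusted p = 0.0301) and Psme2 (1.09, adjusted p = 0.000373) were called higher in Nr4a1 KO than in wild type. Replicate 2 was above replicate 1 for these 5 genes in the other 3 genotypes too, by gaps of 0.02 to 0.62. Activators of interferon-responsive genes also differed between these libraries. Irf1 stood at 5.42 and 7.63 log2 CPM in the 2 Nr4a1 KO libraries, and Nlrc5, the activator of MHC class I genes, at 4.34 and 6.59. The wild type values were 5.88 and 6.22 for Irf1 and 4.32 and 5.08 for Nlrc5, so replicate 2 was above wild type for both. Their part in the spread of the 5 genes was not tested.

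**Figure D3:**
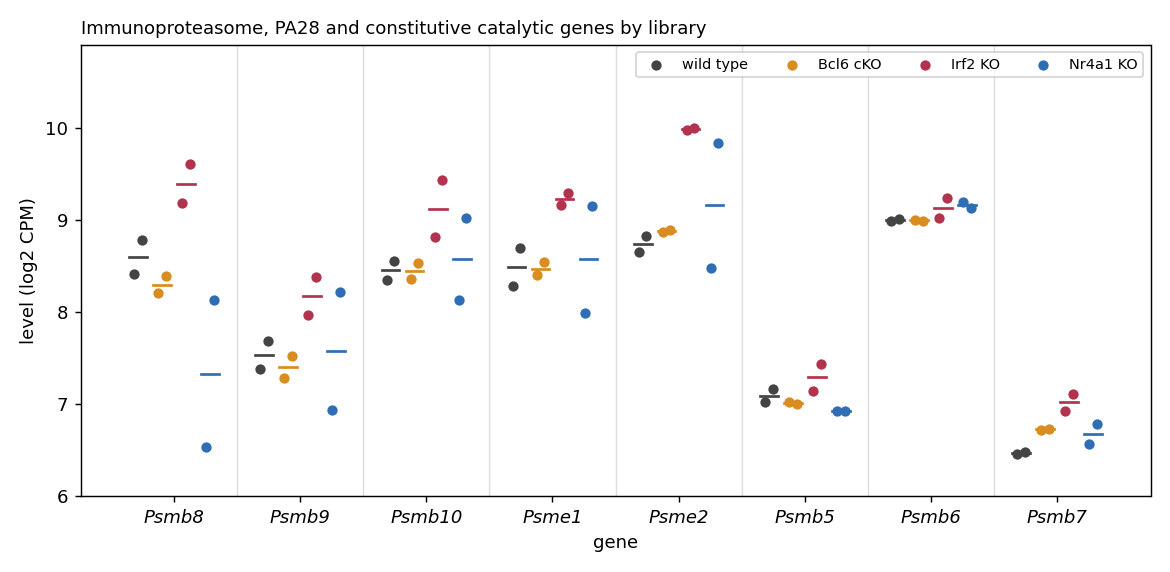
Points are log2 CPM values of single libraries and short lines are means of 2, for the 5 immunoproteasome and PA28 genes and the constitutive catalytic genes Psmb5, Psmb6 and Psmb7. Irf2 KO has the highest mean for the first 5 genes, and the Nr4a1 KO points lie 0.89 to 1.60 apart there. For Psmb9 and Psmb10 the higher Nr4a1 KO point lies above the lower Irf2 KO point.

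The genes of the constitutive catalytic sites moved less. Psmb5 (chymotrypsin-like site) stood at 7.02 and 7.16 log2 CPM in wild type, 7.02 and 7.0 in Bcl6 cKO, 7.14 and 7.44 in Irf2 KO, and 6.93 in both Nr4a1 KO libraries. Psmb6 (caspase-like site) stood at 8.99 and 9.01 in wild type, 9.0 and 8.99 in Bcl6 cKO, 9.02 and 9.24 in Irf2 KO, and 9.19 and 9.13 in Nr4a1 KO. The differences of Psmb5 and Psmb6 from wild type lay between -0.15 and 0.20 in the 3 knockouts and did not pass. Psmb7 (trypsin-like site) stood at 6.46 and 6.48 in wild type, 6.72 and 6.73 in Bcl6 cKO, 6.93 and 7.11 in Irf2 KO, and 6.57 and 6.78 in Nr4a1 KO. It rose in Irf2 KO by 0.55 ± 0.11 (adjusted p = 0.0113), with its libraries above the other 6, and lost the call without replicate 2 of either genotype. Psmb7 shares 405 exon bases with Nek6 on the other strand, and Psmb6 has a copy, Psmb6-ps2, that the rule left out (1.0 to 1.91 log2 CPM).

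Each immunoproteasome gene was also set over the gene it replaces within each library, as CPM per kilobase of exon. The ratio of Psmb8 to Psmb5 was 0.697 and 0.819 in wild type, 0.604 and 0.699 in Bcl6 cKO, 1.09 and 1.19 in Irf2 KO, and 0.201 and 0.61 in Nr4a1 KO. Irf2 KO thus had the highest of these ratios, and Nr4a1 KO replicate 1 was the lowest library. Whether a ratio passes 1 depends on the exon lengths used (3381 bases for Psmb8 and 899 for Psmb5). In log2 CPM, without lengths, Psmb8 was above Psmb5 in wild type too (8.41 and 8.78 against 7.02 and 7.16). It was above in every library but Nr4a1 KO replicate 1 (6.53 against 6.93). The ratio of Psmb9 to Psmb6 was 0.167 and 0.204 in wild type, 0.248 and 0.281 in Irf2 KO, and 0.108 and 0.273 in Nr4a1 KO. The ratio of Psmb10 to Psmb7 did not separate Irf2 KO (7.37 and 10.0) from wild type (7.44 and 8.42). These ratios are of RNA, and the exon lengths are unions over all annotated transcripts.

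As a group the 5 genes had a median log2 difference of 0.74 in Irf2 KO against wild type, and the other 44 one of 0.29, a gap of 0.44. The gap between the medians was 0.37 and 0.62 in the 2 Irf2 KO libraries and -0.16 and 0.16 in wild type. Its SD within genotypes, pooled over all 4, was 0.425, about the size of the gap itself. That SD includes the Nr4a1 KO libraries, which lay farthest apart and do not enter this gap. In the libraries labelled Bcl6 cKO the gap against wild type was -0.12, and in Nr4a1 KO it was -0.07, where the libraries gave -0.59 and 0.53. No test was made of these medians, which describe genes chosen with results known.

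**Figure D4:**
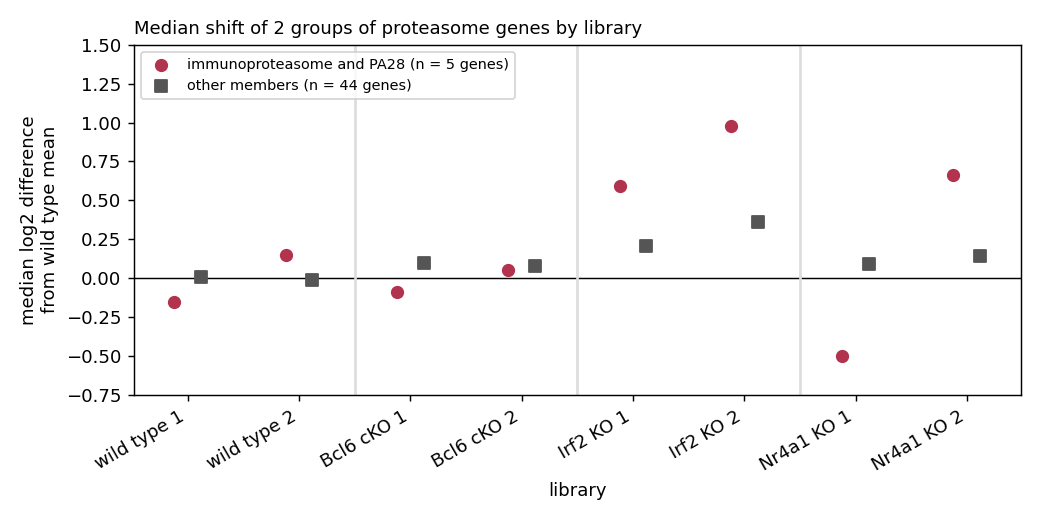
For each library (x axis) the points give the median log2 difference from the wild type mean of the 5 immunoproteasome and PA28 genes (circles) and of the other 44 proteasome genes (squares). The circles stand at 0.59 and 0.98 in Irf2 KO and at -0.50 and 0.66 in Nr4a1 KO, while the squares stay between -0.01 and 0.36 throughout.

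Among the other genes the alpha ring held the most calls in Irf2 KO, where 7 of its 8 genes rose (9.26% of all genes did). The direction was not particular to Irf2 KO. For all 8 genes both libraries lay above both wild type libraries in each knockout. Their medians were 0.46 in Irf2 KO, 0.29 in Nr4a1 KO (1 call) and 0.17 in Bcl6 cKO (0 calls). The alpha subunits form the outer rings and the gate of the core. Psma5 (chr3:108256926-108279974, plus strand) stood at 8.06 and 8.16 log2 CPM in wild type, 8.30 and 8.39 in Bcl6 cKO, 9.0 and 9.35 in Irf2 KO, and 8.22 and 8.76 in Nr4a1 KO. The Irf2 KO libraries were above all others, and Psma5 rose by 1.06 ± 0.17 (2.09-fold, adjusted p = 0.00544), a call kept in all 8 fits that left out 1 library. Psma5 also rose in Irf2 KO against Nr4a1 KO (0.69 ± 0.17, adjusted p = 0.024) and against Bcl6 cKO (0.83 ± 0.17, adjusted p = 0.0238). Its copy Psma5-ps, left out by the rule, moved with it, from 3.19 and 3.18 in wild type to 4.55 and 4.62 in Irf2 KO, so reads shared between the copies leave the size uncertain.

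The Psma5 start is shown for the largest rise among the standard alpha subunits, with the same conventions and none of the 3 motifs.
Psma5, chr3:108256676-108256925, plus strand: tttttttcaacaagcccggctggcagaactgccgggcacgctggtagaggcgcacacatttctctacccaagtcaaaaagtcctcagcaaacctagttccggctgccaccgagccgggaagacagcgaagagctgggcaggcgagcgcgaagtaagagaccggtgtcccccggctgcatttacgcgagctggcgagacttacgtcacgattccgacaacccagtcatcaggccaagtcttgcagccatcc

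The other alpha genes rose by less. Psma3 stood at 8.61 and 8.55 log2 CPM in wild type and at 9.07 and 9.18 in Irf2 KO, a rise of 0.54 ± 0.11 (adjusted p = 0.0111). Psma6 stood at 8.04 and 7.97 in wild type and at 8.45 and 8.67 in Irf2 KO, a rise of 0.55 ± 0.1 (adjusted p = 0.00777). The groups did not overlap for either gene. Without Irf2 KO replicate 2 both calls were lost, and Psma3 also lost its call without wild type replicate 2. Psma1, Psma4 and Psma7 rose by 0.31 to 0.37 and kept the call in 2 of the 8 fits without a library. Psma2, the one alpha gene that did not pass, differed by 0.29.

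Psma8 encodes the alpha subunit of the proteasome of meiotic male germ cells, and is a paralogue of Psma7. It was the lowest of the 49 genes, at 64 and 66 reads in wild type, 210 and 102 in Bcl6 cKO, 431 and 362 in Irf2 KO, and 123 and 277 in Nr4a1 KO. On the log2 CPM scale these were 0.15 and 0.37, 1.77 and 0.97, 3.15 and 2.73, and 1.28 and 2.53. All 6 knockout libraries exceeded both wild type libraries. Psma8 rose by 2.68 ± 0.44 in Irf2 KO (6.41-fold, adjusted p = 0.00544), in every fit that left out 1 library. Its rise of 1.64 ± 0.44 in Nr4a1 KO (adjusted p = 0.0387) held in 1 of those 8 fits, the one without Nr4a1 KO replicate 1. Even at its highest, in Irf2 KO, Psma8 reached 3.12 CPM per kilobase of exon, against 494 for Psma7, and reads shared with Psma7 cannot be told apart from its own here.

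The 4 noncatalytic beta genes differed from wild type by 0.07 to 0.29 in Irf2 KO and did not pass there. In the 19S cap the ATPase Psmc6 rose in Irf2 KO, from 7.12 and 7.03 log2 CPM in wild type to 7.53 and 7.74 (0.56 ± 0.1, adjusted p = 0.00851). It was the 1 of 6 ATPase genes that passed. Of the 11 non-ATPase genes 4 rose in Irf2 KO, namely Psmd14 (0.46), the deubiquitinating enzyme of the cap, and the lid subunits Psmd12 (0.38), Psmd7 (0.37) and Psmd6 (0.35). Among the core chaperones Psmg1 rose, from 4.15 and 4.16 log2 CPM in wild type to 4.71 and 5.12 in Irf2 KO (0.76 ± 0.16, adjusted p = 0.0136). Its Bcl6 cKO (4.14 and 4.07) and Nr4a1 KO (4.32 and 4.28) libraries lay below both Irf2 KO libraries, and Psmg1 rose in Irf2 KO against each of these genotypes as well. These calls were less firm than that of Psma5, since each was lost without Irf2 KO replicate 2.

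The falls in Nr4a1 KO came from 5 genes of the cap, the core and its assembly, with no overlap between Nr4a1 KO and any other genotype. Psmd8 (chr7:29174188-29180701, minus strand), a lid subunit of the 19S cap, stood at 8.57 and 8.61 log2 CPM in wild type, 8.11 and 8.21 in Bcl6 cKO, 8.38 and 8.61 in Irf2 KO, and 6.75 and 7.13 in Nr4a1 KO. It fell by 1.65 (log2 difference -1.65 ± 0.14, 3.13-fold, adjusted p = 9.65e-05). Psmb4 (chr3:94884093-94886961, minus strand), a noncatalytic beta subunit needed for the inner rings, stood at 7.25 and 7.23 in wild type, 6.35 and 6.89 in Bcl6 cKO, 7.14 and 7.49 in Irf2 KO, and 5.85 and 5.68 in Nr4a1 KO. For both genes the Nr4a1 KO libraries were below all other 6, and the Bcl6 cKO libraries lay between them and wild type. Psmb4 fell by 1.48 (-1.48 ± 0.18, 2.79-fold, adjusted p = 0.00087).

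Psmg4 (chr13:34162964-34178173, plus strand), a chaperone of alpha ring assembly, showed the largest fall. It stood at 5.50 and 5.47 log2 CPM in wild type, 5.20 and 5.67 in Bcl6 cKO, 5.85 and 5.95 in Irf2 KO, and 3.17 and 3.55 in Nr4a1 KO, or 2623 and 2277 reads in wild type against 458 and 560. Both Nr4a1 KO libraries lay far below the other 6, which ranged from 5.20 to 5.95. The fall was -2.13 ± 0.18 (4.37-fold, adjusted p = 0.000126). Its chaperone partner Psmg3, by contrast, differed by 0.17 and did not pass.

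Psmd6 (lid; chr14:14112174-14120984, minus strand) and Psmd7 (lid; chr8:107580381-107588464, minus strand) fell by less. Psmd6 stood at 7.53 and 7.52 log2 CPM in wild type, 7.65 and 7.59 in Bcl6 cKO, 7.83 and 7.91 in Irf2 KO, and 6.78 and 6.93 in Nr4a1 KO (-0.67 ± 0.09, adjusted p = 0.00178). Psmd7 stood at 7.40 and 7.46, 7.50 and 7.52, 7.71 and 7.89, and 6.81 and 6.99 in the same order (-0.53 ± 0.1, adjusted p = 0.0107). These 2 genes moved in opposite directions in the 2 knockouts, since both rose in Irf2 KO against wild type.

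All 5 genes were also lower in Nr4a1 KO than in the other knockouts. Against Bcl6 cKO the log2 differences were -2.08 for Psmg4, -1.22 for Psmd8, -0.85 for Psmb4, -0.76 for Psmd6 and -0.61 for Psmd7, and these 5 were the members called (4.97% of all genes tested were called lower there, 0.776% higher and 5.75% in either direction). Both Nr4a1 KO libraries lay above both Bcl6 cKO libraries for 12 members (23.4% of all genes) and below them for 7 (25.6% of all genes). Irf2 KO exceeded Nr4a1 KO by 2.55 for Psmg4, 1.55 for both Psmd8 and Psmb4, 1.01 for Psmd6 and 0.90 for Psmd7. The falls of Psmg4, Psmd8, Psmb4 and Psmd6 against wild type were called in all 18 alternatives tried, among them one that adjusted for transcript GC and length, and that of Psmd7 in 17, with the call lost without wild type replicate 2 (adjusted p = 0.0681). Log2 differences ran lower in GC-rich transcripts in Nr4a1 KO (Spearman's rho = -0.338 across 12740 genes, which are not independent replicates). The same held in Bcl6 cKO (-0.318) and Irf2 KO (-0.193), so the relation is not particular to Nr4a1 KO. The GC content of the 5 genes ran from 47.1% for Psmd6 to 55.1% for Psmg4.

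The starts of the 3 genes with the largest falls are printed for comparison with one another, again in lower case with none of the 3 motifs searched. The windows of Psmd8 and Psmb4 stop short of annotated exon bases, and that of Psmg4 is whole.
Psmd8, chr7:29180702-29180923, minus strand: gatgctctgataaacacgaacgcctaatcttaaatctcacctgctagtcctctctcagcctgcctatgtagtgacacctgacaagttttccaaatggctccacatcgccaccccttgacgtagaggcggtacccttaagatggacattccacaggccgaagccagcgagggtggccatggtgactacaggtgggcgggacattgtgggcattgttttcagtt
Psmb4, chr3:94886962-94887208, minus strand: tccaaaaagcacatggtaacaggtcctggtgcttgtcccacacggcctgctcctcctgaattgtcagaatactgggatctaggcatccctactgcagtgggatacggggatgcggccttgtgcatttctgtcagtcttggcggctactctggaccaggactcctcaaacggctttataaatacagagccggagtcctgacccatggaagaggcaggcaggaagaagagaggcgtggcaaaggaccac
Psmg4, chr13:34162714-34162963, plus strand: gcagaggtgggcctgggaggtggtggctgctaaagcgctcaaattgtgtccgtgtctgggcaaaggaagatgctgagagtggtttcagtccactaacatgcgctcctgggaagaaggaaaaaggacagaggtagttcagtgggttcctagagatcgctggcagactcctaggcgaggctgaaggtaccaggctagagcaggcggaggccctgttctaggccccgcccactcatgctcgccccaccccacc

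**Figure D5:**
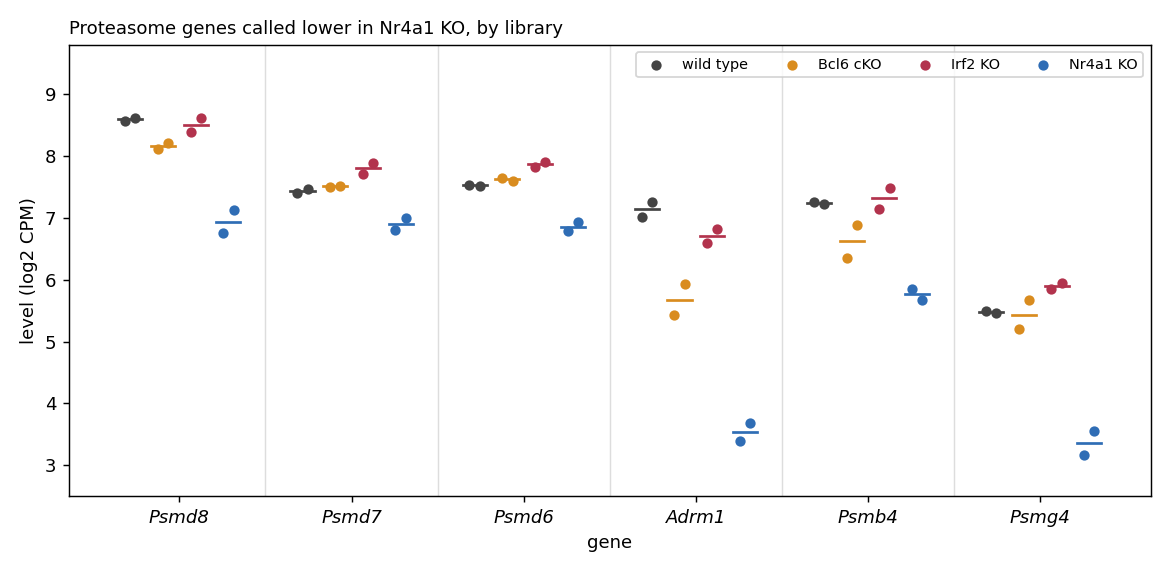
Points are log2 CPM values of single libraries and short lines are means of 2, for the 5 proteasome genes that fell in Nr4a1 KO and for Adrm1, a further 19S gene outside the Psm names. The Nr4a1 KO points lie below those of the other 6 libraries for each gene, and Adrm1 falls farthest, to 3.39 and 3.69.

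In the remaining comparisons between knockouts, 9 members were higher and 1 lower in Irf2 KO than in Nr4a1 KO (12.4% and 9.94% of all genes tested, 22.3% in either direction). Both Irf2 KO libraries lay above both Nr4a1 KO libraries for 31 members (32.1% of all genes) and below them for 1 (31.0% of all genes). Beside the 5 genes above and Psma5, Psmb8 and Psmg1, the higher members included Psmc3ip, which bears a proteasome-like name but encodes a partner of PSMC3 that acts in meiotic recombination (0.58 ± 0.15, adjusted p = 0.0261). The lower one was Psmf1, the PI31 regulator of the core (-0.37 ± 0.1, adjusted p = 0.0364), which kept its call in 2 of the 8 fits without a library. This count was 5 without Irf2 KO replicate 2, 6 without Nr4a1 KO replicate 1 and 16 without Nr4a1 KO replicate 2. Against Bcl6 cKO 5 members rose in Irf2 KO, namely Psma5, Psmg1, Psmb4, Psmc3ip and Psmd12, where 3.87% of all genes did (9.55% were called in either direction and 5.68% lower). Both Irf2 KO libraries lay above both Bcl6 cKO libraries for 38 members (30.9% of all genes) and below them for 2 (30.9% of all genes). That count was 3 without either wild type library, 2 without Irf2 KO replicate 1, 0 without Irf2 KO replicate 2 or either Bcl6 cKO library, and 14 without either Nr4a1 KO library. For Nr4a1 KO against Bcl6 cKO the 5 falls became 3 without Bcl6 cKO replicate 2, and 4 rises joined 5 falls without Nr4a1 KO replicate 1.

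Psmd5, a chaperone of 19S assembly, set 1 wild type library apart and is named after its values were seen. It stood at 6.35 log2 CPM in wild type replicate 1 but at 4.41 in replicate 2, and the 6 knockout libraries ranged from 3.64 to 4.24. Its differences from wild type (-1.45 in the libraries labelled Bcl6 cKO, -1.25 for Irf2 KO, -1.61 for Nr4a1 KO) did not pass. They rest mostly on wild type replicate 1, since replicate 2 lay above the knockout libraries but close to them. With replicate 1 as the only wild type library the difference in Bcl6 cKO was -2.42.

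Levels between genes were compared as CPM per kilobase of exon in wild type. Psma7 (399), Psmb2 (361), Psmb6 (274) and Psme2 (242) stood highest, and Psma8 (0.483), Psmd9 (4.17), Psmd3 (4.58) and Psme4 (5.67) lowest. The long exon unions of some genes lower their values. In Irf2 KO Psme2 reached 575 and became the highest of the 49 by this measure, above Psma7 at 494. Without division by length Psma7 stayed above Psme2 there (means of 10.57 and 9.99 log2 CPM).

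Promoter windows of RefSeq (GRCm38.p6) matched 41 of the 49 genes, in 44 windows, and the 250 bases before each start were searched on both strands. The motifs were the interferon-stimulated response element (ISRE, GAAANNGAAA), the gamma-activated site (GAS, TTCNNNGAA) and the antioxidant response element (ARE, TGACNNNGC) through which Nfe2l1 acts. They occurred in 2.98%, 7.02% and 10.16% of 32851 windows of the same length. Of the 5 immunoproteasome and PA28 genes 1 held a GAS, 0 an ISRE and 0 an ARE. The GAS was in Psmb8, as TTCCCAGAA at positions -97 to -89 from the start. Of the 36 other genes with a window 3 held an ISRE (Psmb3, Psmd4 and Psmd9), 1 a GAS (Psmg1) and 5 an ARE (Psmb5, Psmb6, Psmc6, Psmd12 and Psmd9). No matches of different motifs overlapped. A match is only a stretch of letters, and the windows of Psmb8 and Psmb9 lie within annotated exons.

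The Psmb5 window is printed as the constitutive partner of Psmb8, with its ARE in capitals, at positions -47 to -39 from the start.
Psmb5, chr14:54618023-54618245, minus strand: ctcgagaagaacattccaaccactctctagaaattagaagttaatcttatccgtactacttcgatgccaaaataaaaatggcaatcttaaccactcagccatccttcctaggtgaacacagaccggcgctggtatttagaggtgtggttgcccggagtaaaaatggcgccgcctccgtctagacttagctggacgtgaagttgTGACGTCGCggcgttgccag

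Genes that work with the proteasome were followed through a list of 28, of which 27 were tested. In Nr4a1 KO 3 of them fell and 2 rose, where 11.2% and 3.94% of all genes did, so the count of falls is near the background. Adrm1, a ubiquitin receptor of the 19S cap, stood at 7.02 and 7.26 log2 CPM in wild type and 5.43 and 5.93 in Bcl6 cKO. It stood at 6.59 and 6.82 in Irf2 KO, and at 3.39 and 3.69 in Nr4a1 KO. It fell in Nr4a1 KO by 3.60 (-3.60 ± 0.19, 12.1-fold, adjusted p = 1.69e-05) and in Bcl6 cKO by 1.46 (-1.46 ± 0.19, adjusted p = 0.00589), with no overlap between groups. Without Bcl6 cKO replicate 1 the second of these calls was lost (adjusted p = 0.0703). Txnl1, a redox protein bound to the 19S cap, and Vcp, the ATPase that extracts ubiquitinated proteins, also fell in both, by -1.37 and -0.94 in Nr4a1 KO and by -0.51 and -0.68 in Bcl6 cKO. These 3 were the falls of the list in both genotypes (3.65% of all genes fell in Bcl6 cKO), and in Bcl6 cKO the call was kept in 2 of 8 fits without a library for Txnl1 and in 4 for Vcp. The 2 rises in Nr4a1 KO were Zfand5 (0.64), which stimulates the proteasome, and Rps27a (0.30), a ubiquitin-ribosomal fusion gene whose call was kept in 0 of those 8 fits.

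In Irf2 KO 4 of the 27 rose and 1 fell, where 9.26% and 12.3% of all genes did. Among the rises were Rps27a (0.50), which has many copies in the genome and so is uncertain, Rad23b (0.59), a shuttle for ubiquitinated proteins, and Uchl5 (0.43), a deubiquitinating enzyme held by Adrm1. Ngly1, which deglycosylates and thereby activates the Nfe2l1 product, fell by 0.76 (log2 difference -0.76). Nfe2l1 itself stood at 4.08 to 4.67 log2 CPM in all 8 libraries and differed from wild type by -0.18, -0.12 and -0.28 (Irf2 KO, Nr4a1 KO, Bcl6 cKO), none of which passed. The median of the 27 was 0.15 in Irf2 KO, 0.04 in Nr4a1 KO and 0.03 in Bcl6 cKO.

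Of 12 genes of MHC class I processing 2 rose in Irf2 KO, the chaperones Calr (0.93) and Canx (0.58), and H2-D1, a class I heavy chain, fell (-1.77), against the same 9.26% and 12.3% of all genes. H2-D1 differed between the wild type libraries too, at 11.25 and 9.93 log2 CPM, and lost its call when replicate 1 of either genotype was left out. The peptide transporter gene Tap1, next to Psmb9, stood at 6.65 and 7.51 in wild type, 7.34 and 7.91 in Irf2 KO, and 5.48 and 7.11 in Nr4a1 KO, and did not pass. In Nr4a1 KO Canx rose (0.47) and H2-D1 fell (-1.57), calls kept in 4 and 2 of the 8 fits without a library. Of all genes 3.94% rose and 11.2% fell in Nr4a1 KO. In Bcl6 cKO limma and limma voom called 0 of the 12, with 1 higher and 1 lower at an unadjusted p under 0.05.

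Of 13 interferon signalling genes tested 4 fell in Irf2 KO, namely the receptor chains Ifnar1 (-1.01) and Ifngr1 (-0.79), the targeted gene Irf2 (-0.56) and the kinase Tyk2 (-0.46), where 12.3% of all genes fell. Ifnar1, Ifngr1 and Tyk2 fell in Nr4a1 KO too (-1.07, -0.57 and -0.58) and in Bcl6 cKO (-0.65, -0.54 and -0.56), where each call was kept in 2 or 3 of the 8 fits. Of all genes 11.2% fell in Nr4a1 KO and 3.65% in Bcl6 cKO. Irf1 differed by -0.39 in Irf2 KO and by 0.48 in Nr4a1 KO, and neither passed.

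Markers of other cells moved with genotype as well, beside 9.26% of all genes that rose and 12.3% that fell in Irf2 KO. The same shares were 3.94% and 11.2% in Nr4a1 KO, and 1.36% and 3.65% in Bcl6 cKO. In Irf2 KO 6 of 8 early myeloid genes tested rose and 2 fell, and their summed level was 3700 and 4650 CPM against 1950 and 2160 in wild type, 2640 and 2260 in Bcl6 cKO, and 2060 and 2120 in Nr4a1 KO. Of 12 neutrophil genes 6 fell in Irf2 KO (summed 527 and 1160 CPM against 2180 and 1860 in wild type), and of 10 classical monocyte genes 5 fell (21600 and 26300 against 35400 and 40800). Of 10 nonclassical monocyte genes 6 fell in Irf2 KO, at a median of -1.58 (summed 290 and 241 CPM against 522 and 673). In Nr4a1 KO 4 fell, at a median of -0.85 (453 and 548 CPM). This list includes Nr4a1, the gene targeted in Nr4a1 KO, so its own low level there enters these values. Conventional dendritic genes summed to 38.2 and 29.3 CPM in Irf2 KO, where 2 of 6 fell, and to 113 and 430 in Nr4a1 KO, against 85.5 and 108 in wild type. Of 6 plasmacytoid dendritic genes 3 fell and 1 rose in Irf2 KO. The 5 B cell genes tested of 10 listed summed to 684 and 779 CPM in wild type and 671 to 1030 elsewhere. Most of that sum was Ighm (9.19 to 9.93 log2 CPM), so it hides the other genes. In Irf2 KO 3 of the 5 B cell genes fell, and their median log2 difference was -3.28 over the 5. The T and NK cell list had 1 tested gene of 10 listed, at 7.36 to 20.8 CPM, which rose in each knockout, and the 5 erythroid genes tested summed to at most 29.7 CPM in any library, and 4 of them fell in Irf2 KO. The part of these cells in the proteasome differences was not tested.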

How the data were processed

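RNA of Ly6C+ bone marrow monocytes was sequenced in 8 libraries, 2 for each of 4 genotypes. Per the labels' protocols, 10 ng of total RNA was amplified with the SMARTer Ultra Low kit and sequenced as paired reads of 150 bases. Build mm10 and the tools STAR, Salmon, featureCounts of Subread, bcl2fastq and limma are listed, with no order, per the submitters' processing notes. The authors deposited 1 merged table of 13789 rows, of which 45 repeated rows, identical to others, were left out (13744 genes). Its log2 values were made by the authors as log2 CPM, and undoing them (reads plus 0.5 over the scaled library) gave whole reads recovered within 0.01 for 100% of values. Adjusted p-values and log2 fold changes of the authors' deposited table were used only as an alternative.

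Genes with a mean of at least 0 log2 CPM (12752) entered limma 3.58.1 (R 4.3.3), with 4 group means, a trend of the prior variance, 4 residual and 4.66 prior degrees of freedom, and Benjamini-Hochberg adjustment over all genes in each comparison. Where 1 library was left out, the remaining library of that genotype is assumed to vary as the other genotypes do. limma voom was run on the recovered reads, and it called 17 proteasome genes in Irf2 KO and 5 in Nr4a1 KO against wild type. Alternatives also covered the trend, the filter, the scaling, the groups fitted, the replicate number as a block, each library left out, and GC content and length. On simulated data of 12752 genes the procedure recovered 13.4% of changes planted at 1.5-fold, 52.2% at 2-fold and 75.8% at 4-fold for Irf2 KO, with 2 false calls in 96. For Nr4a1 KO it recovered 10.4%, 35.8% and 72.7%, with 5 false calls in 84. For Bcl6 cKO it recovered 17.9%, 37.3% and 72.7%, with 2 false calls in 87. The simulation gave each gene the same spread in all genotypes and drew genes independently. These shares may therefore not hold where genotypes differ in spread, as the immunoproteasome genes did in Nr4a1 KO.

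Positions, GC content, exon overlaps and exon lengths came from GENCODE M21 on GRCm38, and promoter sequences from RefSeq (GRCm38.p6). The named genes were the 5 immunoproteasome and PA28 genes, Psmb5, Psmb6 and Psmb7, the 12 largest changes among the other members called against wild type, and from each pathway list up to 6 called genes, with Nfe2l1, Nlrc5, Irf1 and the targeted genes. Some results of the lists are not reported here. The members and lists were chosen with earlier results of these data known, and the other members named were chosen after their values were seen. Figures were drawn with matplotlib in Python.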

Additional observations from a re-analysis of the deposited data

How the results depend on the processing

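Of the 42 calls of proteasome genes over the 6 comparisons, 14 were kept in every alternative. Over 734 results of alternatives 589 kept the call, 145 lost it and 0 changed direction. The counts of called members moved by more than 1.5 times in these alternatives. Without the trend of the prior variance, 7 genes were called in Irf2 KO against wild type, 1 against Bcl6 cKO, and 3 in Nr4a1 KO against Bcl6 cKO. Median centring gave 25 in Irf2 KO and 13 in Nr4a1 KO against wild type, and the correction for GC content and length gave 10 in Nr4a1 KO. With only the groups compared in the fit, the counts were 1 for Bcl6 cKO against wild type, 6 for Irf2 KO against Nr4a1 KO and 15 for Irf2 KO against Bcl6 cKO, where limma voom gave 8. The cause was not tested.

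Leaving out 1 library gave 0 to 1 calls for Bcl6 cKO, 2 to 21 for Irf2 KO and 5 to 13 for Nr4a1 KO against wild type, 5 to 16 for Irf2 KO against Nr4a1 KO, 0 to 14 for Irf2 KO against Bcl6 cKO, and 3 to 9 for Nr4a1 KO against Bcl6 cKO. The gap between the medians of the immunoproteasome and PA28 genes and the others ranged from -0.59 to 0.53 in Nr4a1 KO against wild type and from -0.47 to 0.59 against Bcl6 cKO. For Irf2 KO against Nr4a1 KO it ranged from -0.06 without Nr4a1 KO replicate 1, a change of sign, to 1.0 without replicate 2. The differences in Nr4a1 KO against wild type also changed sign without Nr4a1 KO replicate 2, to -0.32 for Psmb10, -0.59 for Psmb9, -0.5 for Psme1 and -0.26 for Psme2 (without Nr4a1 KO replicate 1 they were 0.57, 0.69, 0.66 and 1.09), and without wild type replicate 1 to -0.1 for Psmb9 and -0.12 for Psme1.

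Over all genes tested, differences between replicate 2 and replicate 1 correlated weakly between groups (correlations of -0.003 to 0.183). For the immunoproteasome and PA28 genes, however, replicate 2 was above replicate 1 in every genotype, by 0.02 to 1.60. The labels do not say whether replicate numbers mark a batch. With the replicate number as a block the counts were 0 for Bcl6 cKO, 17 for Irf2 KO and 6 for Nr4a1 KO against wild type, 11 for Irf2 KO against Nr4a1 KO, 6 for Irf2 KO against Bcl6 cKO and 5 for Nr4a1 KO against Bcl6 cKO. With this block Psmb8 was called lower in Nr4a1 KO (-1.26, adjusted p = 0.0248) and Psmb10 higher in Irf2 KO (0.67, adjusted p = 0.0299) against wild type. Psma8 had the fewest reads of any member, 64 in its lowest library.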
